A study of Mus musculus with 12 samples.

Results

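Conventional CD4+ T cells (Tconv) of young mice labelled Dcaf1-deficient were compared with Tconv of old wild-type mice, to ask which features of old cells the young Dcaf1-deficient ones lack. Transcripts of inhibitory receptors, granzyme K, follicular helper cytokines and Foxp3 were high in the old cells and low in the Dcaf1-deficient ones, while both had less Ctse and more Cdkn1a than young wild-type cells, a difference that did not pass the edgeR test over all 12 libraries for the Dcaf1-deficient ones. Sex also separates the Dcaf1-deficient libraries, which were female, from the young wild-type ones, which were male. The libraries came from RNA sequencing of poly(A)-enriched RNA of splenic T cells of C57BL/6 mice, sorted by flow cytometry. They were chosen by sample title: 2 libraries of Tconv from 2-month mice labelled Dcaf1-deficient and 2 libraries of wild-type Tconv from mice older than 18 months. These are 4 of the 12 libraries of the series, which holds 6 groups of 2. Tconv of wild-type mice aged 2 months, 2 libraries, are given beside them as young Tconv, and CD4+CD25+ Treg of the same mouse groups make up the rest. Tconv were sorted as CD4+ cells, and CD25 is named for the Treg sort alone. The driver of the Dcaf1 deletion, the number of mice behind a library and whether replicates came from separate mice are not given in the sources used here, so p-values measure only the spread between these samples, which may be technical.

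Dcaf1, listed under its older symbol Vprbp (chromosome 9, 106821874 to 106880992, GENCODE M21, mm10), encodes a substrate receptor of the CUL4-DDB1 ubiquitin ligase. Conventional T cells leave the thymus naive, and with repeated antigen contact over life they turn into memory, follicular helper, cytotoxic and exhausted forms. Exhausted T cells keep inhibitory receptors such as PD-1 on their surface under the control of TOX factors, and the T-box factor Eomes drives granzyme expression in cytotoxic cells. Foxp3 is the transcription factor that defines regulatory T cells, and a share of them in the spleen carries little CD25. In bulk samples fewer cells of a type and less RNA per cell cannot be told apart, which holds for every level given here.

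The Dcaf1 transcript did not fall with the label. Levels are CPM, counts scaled to the size of each library with TMM. Vprbp stood at 132 and 132 CPM in Dcaf1-deficient Tconv, against 117 and 90.5 CPM in aged Tconv and 147 and 144 CPM in young Tconv. The Dcaf1-deficient libraries thus lay above both aged ones and just below both young ones (log2 fold change 0.35 ± 0.14 SE, adjusted p = 0.189 by edgeR). A gene total does not resolve single exons and so checks the deletion no further. These are called the libraries labelled Dcaf1-deficient, and every direction below rests on that label. The 4 libraries held 18358477 to 21564602 estimated counts, within 18358477 to 26852448 over the series. The pair of Dcaf1-deficient Tconv libraries lay far closer to each other than any other pair, with a chi-square per degree of freedom of 5.71 over 8702 genes, against 186 for the aged Tconv pair and 28.8 for the young Tconv pair. That is still more than sampling noise. The measure cannot tell separate mice from a shared source, since library preparation also adds spread. The pair was kept as 2 libraries because the titles list it so. By Xist and Y-linked genes both Dcaf1-deficient libraries were female, aged Tconv 1 and both young Tconv libraries were male, and aged Tconv 2 was female. Aged Tconv 1 shares the title tag L5 with both Dcaf1-deficient libraries, and aged Tconv 2 carries L3. Each aged library thus shares either sex or tag with the Dcaf1-deficient ones. Dcaf1-deficient and young Tconv share no sex, so between these groups sex and label cannot be told apart.

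The markers that define the comparison were all high in aged and low in Dcaf1-deficient Tconv. The 250 bases before the RefSeq start of the 3 with the widest gap (GRCm38.p6, gene strand, 5′ to 3′) are shown because these genes carry the contrast. Each was searched on both strands for the T-box letters GGTGTGA, the AP-1 letters TGANTCA, the NFAT letters TGGAAA and the TATA box letters TATAAA, and capitals mark the only match, a T-box match that begins 75 bases before the Gzmk start.
Pdcd1, chr1:94052554-94052803, minus strand: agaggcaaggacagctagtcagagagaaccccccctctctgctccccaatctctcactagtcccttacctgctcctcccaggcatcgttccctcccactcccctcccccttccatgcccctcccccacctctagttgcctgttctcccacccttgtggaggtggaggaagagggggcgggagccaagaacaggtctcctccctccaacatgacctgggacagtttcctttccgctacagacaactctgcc
Eomes, chr9:118477939-118478188, plus strand: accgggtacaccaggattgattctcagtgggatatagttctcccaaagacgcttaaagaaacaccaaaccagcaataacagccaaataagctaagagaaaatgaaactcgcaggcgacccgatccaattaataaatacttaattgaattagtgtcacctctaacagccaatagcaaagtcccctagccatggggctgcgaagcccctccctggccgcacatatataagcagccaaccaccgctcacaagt
Gzmk, chr13:113180966-113181215, minus strand: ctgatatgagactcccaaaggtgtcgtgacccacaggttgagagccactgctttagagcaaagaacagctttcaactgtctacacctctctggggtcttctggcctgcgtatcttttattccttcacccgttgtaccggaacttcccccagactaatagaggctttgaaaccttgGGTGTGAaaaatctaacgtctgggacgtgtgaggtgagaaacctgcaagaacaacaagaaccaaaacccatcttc
Over all 32851 promoters of this length 3.33% hold the T-box letters, 6.75% the AP-1 letters, 18.6% the NFAT letters and 12.4% the TATA letters. A match describes letters and does not show a bound site, and windows without one say nothing of the factor. The RefSeq start of Gzmk used here lies inside the longer GENCODE span given for the gene below.

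Pdcd1 (chromosome 1, 94038305 to 94052553), which encodes the inhibitory receptor PD-1, had 45.2 and 47.6 CPM in Dcaf1-deficient Tconv, against 338 and 1574 CPM in aged Tconv and 24.7 and 20.2 CPM in young Tconv. Both aged libraries stood far above the other 4, and aged Tconv 2 was the highest (log2 fold change -4.36 ± 0.75 SE, adjusted p = 0.0396 by edgeR). Eomes (chromosome 9, 118478212 to 118486132), the T-box factor of cytotoxic cells, had 11.9 and 13.5 CPM in Dcaf1-deficient Tconv, against 199 and 445 CPM in aged Tconv and 15.9 and 16.3 CPM in young Tconv. The Dcaf1-deficient libraries lay just under the young ones and well below both aged ones (log2 fold change -4.67 ± 0.38 SE, adjusted p = 0.0153 by edgeR). Gzmk (chromosome 13, 113171608 to 113225908), the serine protease granzyme K, had 4.39 and 3.52 CPM in Dcaf1-deficient Tconv, against 174 and 563 CPM in aged Tconv and 2.35 and 2.31 CPM in young Tconv. It was low in Dcaf1-deficient Tconv and abundant in both aged libraries (log2 fold change -6.54 ± 0.67 SE, adjusted p = 0.0222 by edgeR). Foxp3 (chromosome X, 7573644 to 7595245) had 80.8 and 75.6 CPM in Dcaf1-deficient Tconv, against 334 and 675 CPM in aged Tconv and 47.7 and 78.4 CPM in young Tconv. The aged libraries again did not overlap the others (log2 fold change -2.69 ± 0.52 SE, adjusted p = 0.0446 by edgeR). Leaving out aged Tconv 2 gave log2 fold changes of -2.86 for Pdcd1, -3.98 for Eomes, -5.45 for Gzmk and -2.09 for Foxp3. Leaving out Dcaf1-deficient Tconv 1 gave -4.31, -4.56, -6.69 and -2.72 for these genes in that order. Leaving out Dcaf1-deficient Tconv 2 gave -4.40, -4.76, -6.38 and -2.64. The calls themselves depended on single libraries, as given below.

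**Figure D1:**
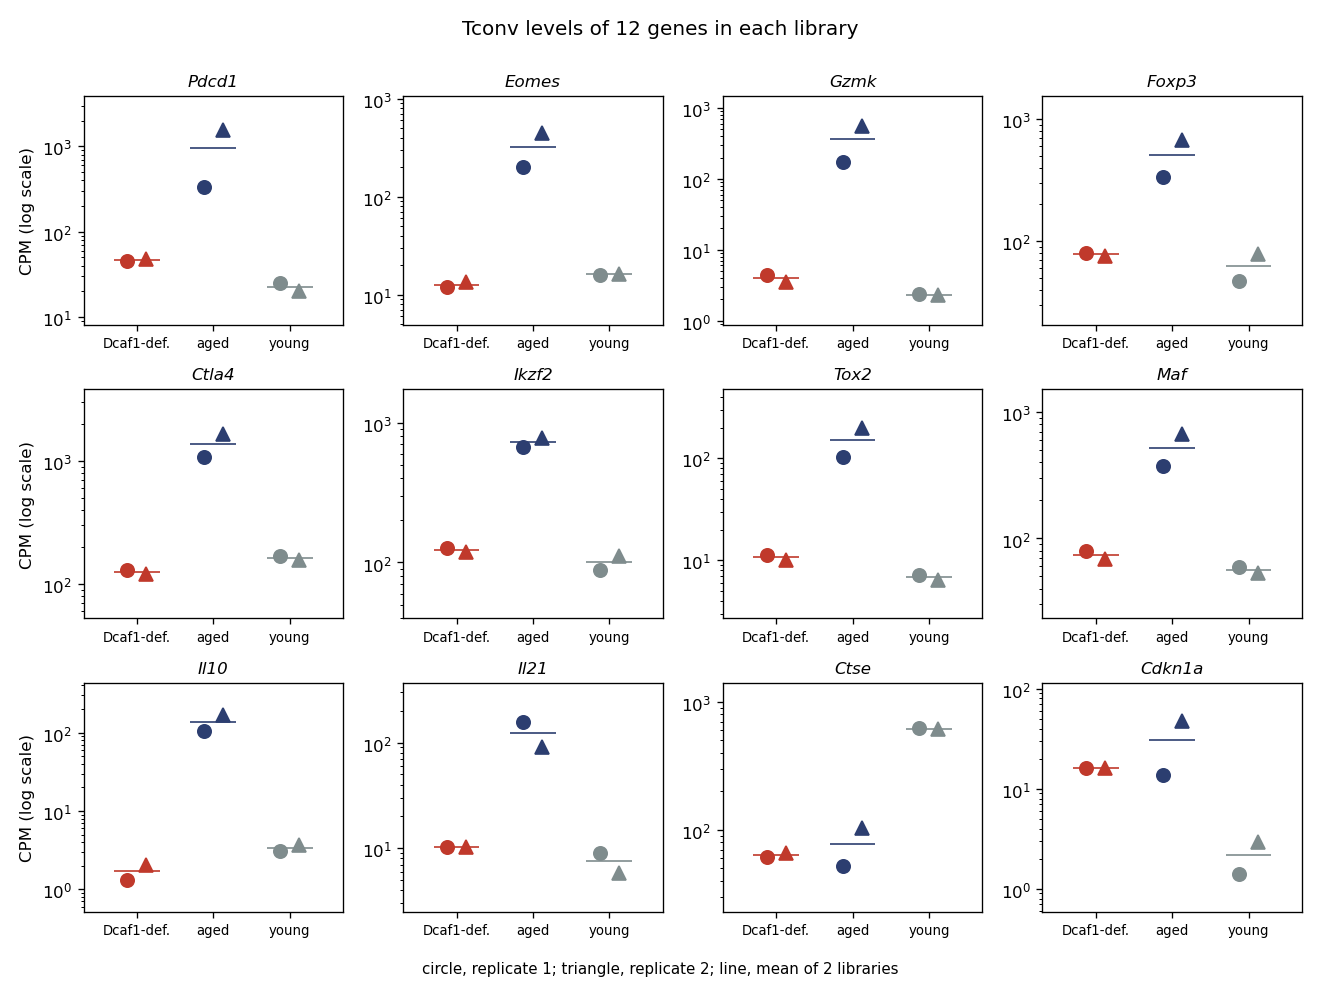
Level of 12 genes in each Tconv library, in CPM on a log scale, with Dcaf1-deficient libraries at the left of each panel, then aged and young ones; symbols mark replicates and lines the mean of 2 libraries. For the first 10 genes both aged libraries stand above the other 4, whereas Ctse is low in Dcaf1-deficient and aged Tconv alike and Cdkn1a in Dcaf1-deficient Tconv falls between the 2 aged libraries.

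Across all genes the difference ran mostly one way. A gene is called where its Benjamini-Hochberg adjusted p from the edgeR quasi-likelihood test, fitted to all 12 libraries, was below 0.05. Of 9495 genes tested 292 were called (3.08%): 226 were called lower in Dcaf1-deficient than in aged Tconv (2.38%) and 66 higher (0.695%). By edgeR, 2125 of the 9495 were at an unadjusted p below 0.05. Counts of list members at either limit, given below, are to be read beside these shares. The 226 lower genes had a median log2 fold change of -2.84 for Dcaf1-deficient over aged Tconv, -0.01 for Dcaf1-deficient over young Tconv and 2.69 for aged over young Tconv. The 66 higher genes had medians of 1.02, 0.34 and -0.66 for those comparisons, which share libraries and are given side by side only. None of the 292 genes overlapped between Dcaf1-deficient and aged libraries, where 29.3% of all genes tested lay lower and 30.6% higher without overlap. Against aged Tconv 1 alone the lower genes differed by a median of -2.01 on the log2 scale and against aged Tconv 2 alone by -2.47. These medians and the lack of overlap follow largely from choosing the genes by their calls in the same libraries. They are a description and no further support.

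How many genes were called depended strongly on single libraries. Dropping either Dcaf1-deficient Tconv library left no call, dropping aged Tconv 2 left 8, and dropping aged Tconv 1 gave 1383, while all 292 kept their direction in each of these fits. Leaving out a library that is not compared also moved the count, to 12 without either young Tconv library, 14 without either Dcaf1-deficient Treg library, 835 and 832 without aged Treg 1 and aged Treg 2, and 166 and 172 without young Treg 1 and young Treg 2. With the very close Dcaf1-deficient pair counted as 1 sample no gene was called, and all 292 kept their direction. DESeq2 called 522 genes higher and 891 lower of 11486, and limma on the deposited log2 values 125 higher and 285 lower of 11271. Of the 47 named genes that were called, all kept their direction when any compared library was left out. No called gene overlapped between the groups, so leaving out a library or pooling the pair could hardly turn a direction. The kept directions thus say nothing of stability. Dropping either Dcaf1-deficient Tconv library ended all 47 calls, dropping aged Tconv 1 left 46, and dropping aged Tconv 2 left 1.

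**Figure D2:**
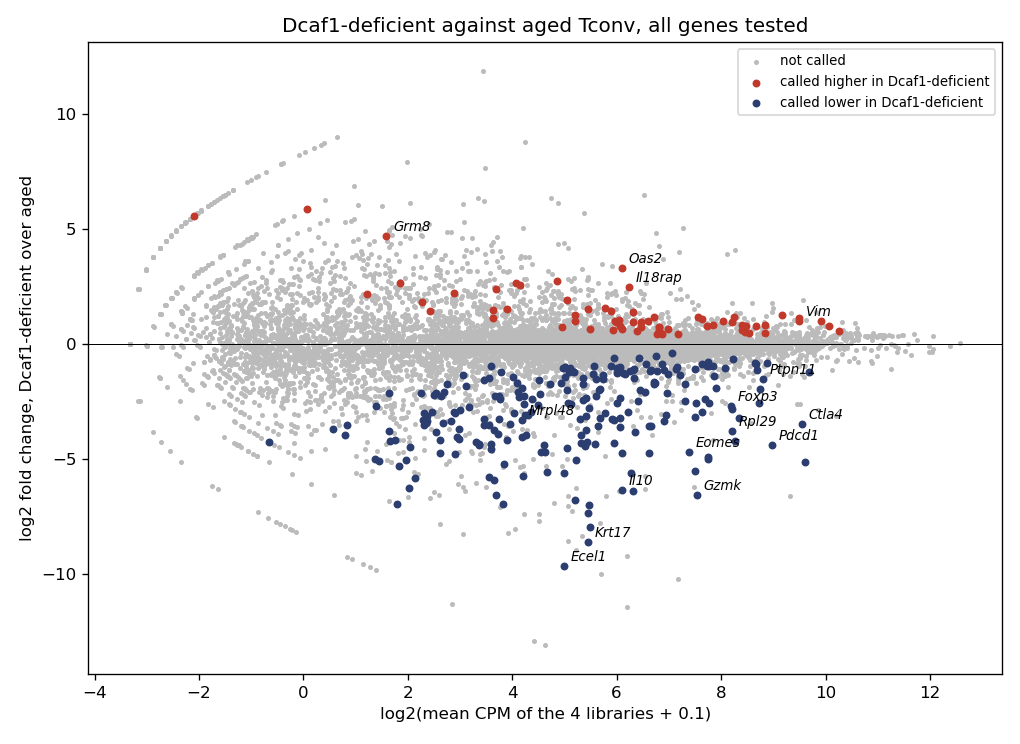
Log2 fold change, Dcaf1-deficient over aged Tconv, of each of the 9495 genes tested against the log2 of its mean level in those 4 libraries with 0.1 CPM added; red marks the 66 genes called higher and blue the 226 called lower. The called lower genes reach much larger fold changes than the called higher ones, and Pdcd1, Ctla4, Gzmk and Eomes are among the more abundant of them.

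Among the gene lists, the inhibitory receptors and the transcription factors tied to them had the most members called. Lists and members were chosen with earlier results of these data known, and some members recur in other lists, so this ranking is a description only. Of 18 tested members 8 fell and none rose, beside 2.38% called lower and 0.695% higher of all genes tested. The median log2 fold change was -2.27, beside -0.01 over all genes tested. With aged Tconv 1 left out the list's median was -2.71, and with aged Tconv 2 left out -1.63. Ctla4, the receptor that competes with CD28 for its ligands, had 130.3 and 120.3 CPM in Dcaf1-deficient Tconv, against 1078 and 1673 CPM in aged Tconv and 168 and 157 CPM in young Tconv (log2 fold change -3.46, edgeR adjusted p = 0.0313). Tox2, a factor of the TOX family, had 11.3 and 10.2 CPM in Dcaf1-deficient Tconv, against 103 and 199 CPM in aged Tconv and 7.23 and 6.44 CPM in young Tconv (log2 fold change -3.82, edgeR adjusted p = 0.0222). In both genes the Dcaf1-deficient libraries lay near the young ones, and neither aged library came near them. Maf, a factor that drives Il10 and Il21 in helper cells, had 79.1 and 68.6 CPM in Dcaf1-deficient Tconv, against 372 and 667 CPM in aged Tconv and 59.3 and 53.02 CPM in young Tconv (log2 fold change -2.81, edgeR adjusted p = 0.0222). Nfil3, a basic leucine zipper factor, had 14.1 and 12.2 CPM in Dcaf1-deficient Tconv, against 90.4 and 151 CPM in aged Tconv and 10.04 and 10.7 CPM in young Tconv (log2 fold change -3.19, edgeR adjusted p = 0.0289). The nuclear receptor Nr4a2, which antigen receptor signals induce, had 8.39 and 7.09 CPM in Dcaf1-deficient Tconv, against 95.1 and 88.3 CPM in aged Tconv and 11.03 and 9.57 CPM in young Tconv (log2 fold change -3.57, edgeR adjusted p = 0.0351). Its aged libraries were nearly equal, unlike those of Pdcd1. The other called members were Lag3, an inhibitory receptor for MHC class II (45.03 and 43.97 CPM in Dcaf1-deficient Tconv, against 457 and 2587 CPM in aged Tconv), and Tox, the factor that sustains exhausted T cells (66.7 and 67.4 CPM in Dcaf1-deficient Tconv, against 209 and 482 CPM in aged Tconv). The list's Havcr2, which encodes TIM-3, was not called, with 41.8 and 48.7 CPM in Dcaf1-deficient Tconv, against 40.2 and 86.9 CPM in aged Tconv.

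Among cytotoxic genes Eomes and Gzmk fell, 2 of 14 tested, and none rose, with a median log2 fold change of -1.20. Over all genes tested 2.38% were called lower. Ccl5, a chemokine of cytotoxic and memory cells, stood between the groups at 248 and 241 CPM in Dcaf1-deficient Tconv, against 838 and 3375 CPM in aged Tconv and 39.7 and 72.2 CPM in young Tconv (log2 fold change -3.11, edgeR adjusted p = 0.091). The Dcaf1-deficient libraries were thus above both young ones and below both aged ones, without a call against either. Tbx21, the T-bet gene of type 1 helper cells, ran the other way at 57.1 and 54.2 CPM in Dcaf1-deficient Tconv, against 29.5 and 20.4 CPM in aged Tconv and 16.6 and 19.6 CPM in young Tconv (log2 fold change 1.16, edgeR adjusted p = 0.149). DESeq2 called 6 members of this list lower and 3 higher, beside 891 lower and 522 higher of 11486 genes. The list's median by edgeR was -1.56 without the first aged library and -0.30 without the second.

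Of the Treg identity genes 3 of 11 tested fell, Foxp3, Ctla4 and Ikzf2, and none rose, with a median of -1.38. Over all genes tested 2.38% were called lower. Ikzf2 (chromosome 1, 69531214 to 69687245), the gene of Helios, had 127 and 119 CPM in Dcaf1-deficient Tconv, against 673 and 773 CPM in aged Tconv and 89.1 and 111 CPM in young Tconv (log2 fold change -2.55, edgeR adjusted p = 0.0392). Both aged libraries were similarly high, and the Dcaf1-deficient ones lay just above the young range. Il2ra, which encodes CD25, did not follow: it had 49.2 and 48.7 CPM in Dcaf1-deficient Tconv, against 43.1 and 29.7 CPM in aged Tconv and 31.8 and 63.2 CPM in young Tconv (log2 fold change 0.43, edgeR adjusted p = 0.494). Its levels overlapped between young and every other Tconv group, whereas Foxp3 in aged Tconv was above every other Tconv library. Ikzf4, the gene of Eos, was at 20.6 and 16.7 CPM in Dcaf1-deficient Tconv, against 48.4 and 25.2 CPM in aged Tconv and was not called. Of the effector Treg list 3 of 15 tested fell, Il10, Nfil3 and Maf, beside the same 2.38%, with a median of -0.88. With aged Tconv 1 left out the medians were -1.76 for Treg identity and -1.37 for effector Treg genes. With aged Tconv 2 left out they were -1.37 and -0.99.

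Il10 (chromosome 1, 131019845 to 131024974), the anti-inflammatory cytokine, showed the widest gap among the called cytokines. It had 1.32 and 2.07 CPM in Dcaf1-deficient Tconv, against 105 and 168 CPM in aged Tconv and 3.1 and 3.69 CPM in young Tconv. In both Dcaf1-deficient libraries it was below both young ones and far below both aged ones (log2 fold change -6.32 ± 0.78 SE, adjusted p = 0.0242 by edgeR). Il21, the cytokine with which follicular helper cells support B cells, had 10.2 and 10.3 CPM in Dcaf1-deficient Tconv, against 155 and 89.97 CPM in aged Tconv and 9.1 and 5.89 CPM in young Tconv (log2 fold change -3.58, edgeR adjusted p = 0.0275). Here aged Tconv 1 was the higher aged library. Il4, the type 2 cytokine, had 1.12 and 0.82 CPM in Dcaf1-deficient Tconv, against 9.11 and 28.3 CPM in aged Tconv and 1.41 and 2.7 CPM in young Tconv (log2 fold change -4.26, edgeR adjusted p = 0.0344). These were the 3 called lower of 18 tested helper cytokines and receptors, beside 2.38% of all genes tested. The list's median of -0.16 was close to 0.

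The follicular helper list had 5 of 13 tested members called lower and none higher, beside 2.38% lower and 0.695% higher of all genes tested. Its median was -1.50, with aged Tconv 1 left out -1.66 and with aged Tconv 2 left out -1.32. Besides Il21, Il4 and Tox2 the called members were Angptl2, a secreted angiopoietin-like protein, and Bcl6, the factor that defines follicular helper cells. Angptl2 had 13.2 and 14.4 CPM in Dcaf1-deficient Tconv, against 205 and 625 CPM in aged Tconv and 17.4 and 15.7 CPM in young Tconv (log2 fold change -4.91, edgeR adjusted p = 0.0222). Bcl6 had 46.7 and 48.2 CPM in Dcaf1-deficient Tconv, against 146 and 259.8 CPM in aged Tconv and 39.6 and 50.1 CPM in young Tconv (log2 fold change -2.10, edgeR adjusted p = 0.0368). Dcaf1-deficient and young libraries overlapped or nearly so in both genes, and aged libraries were several times higher. Of TNF family costimulation genes 1 of 13 fell, beside 2.38% of all genes tested, so the count says little of the list. This was Tnfrsf8, which encodes CD30. It had 2.44 and 1.54 CPM in Dcaf1-deficient Tconv, against 8.11 and 10.2 CPM in aged Tconv and 0.704 and 1.05 CPM in young Tconv (log2 fold change -2.20, edgeR adjusted p = 0.0275).

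**Figure D3:**
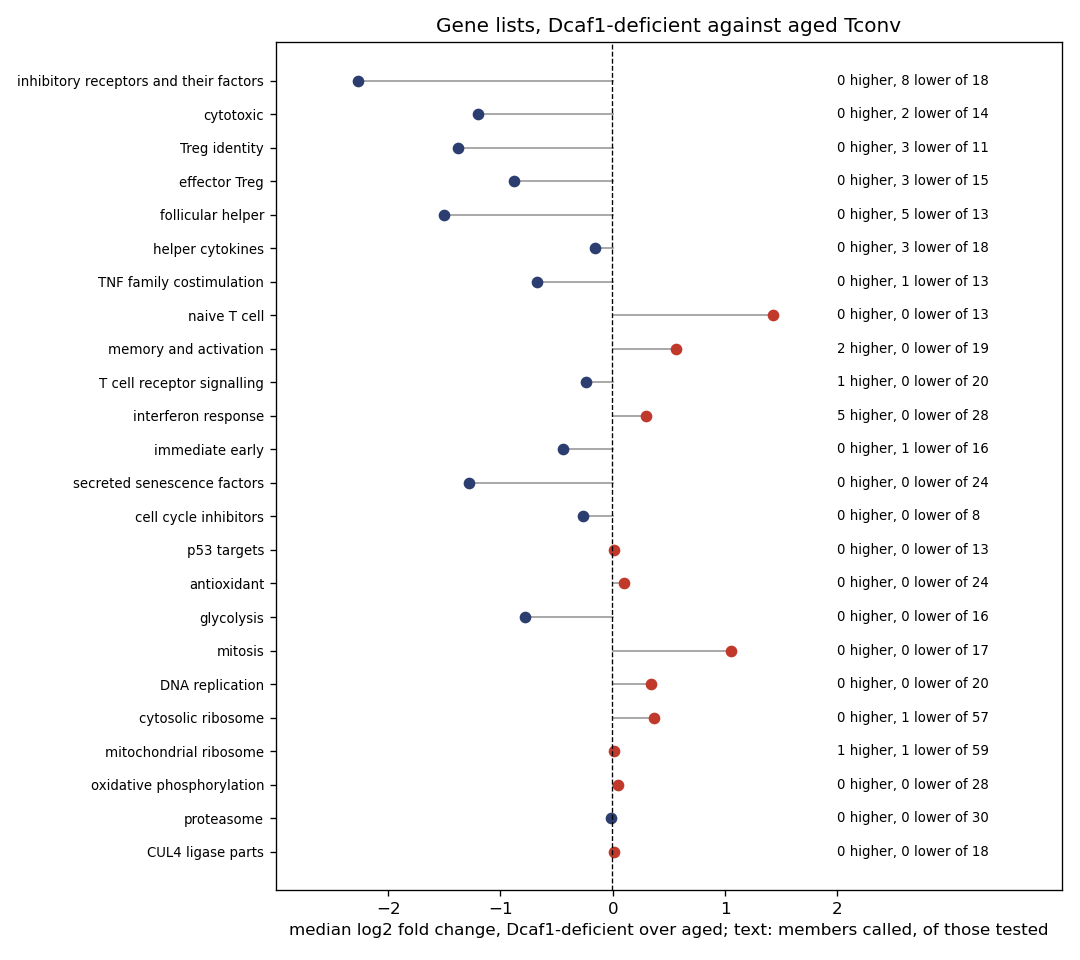
Median log2 fold change, Dcaf1-deficient over aged Tconv, of 24 gene lists, with the number of members called higher and lower of those tested written beside each; the dashed line is the median over all genes tested. Inhibitory receptor, follicular helper and Treg identity lists lie lowest, with 8, 5 and 3 members called lower, and the naive list lies highest with none called. Lists overlap and were chosen with earlier results of these data known.

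The 10 largest called decreases included neuronal, epithelial and muscle genes that were present in aged Tconv and, apart from Gzmk, below 2 CPM in the other 4 libraries. Ecel1 (chromosome 1, 87147655 to 87156521), an endopeptidase-like gene of neurons, had 0.146 and 0 CPM in Dcaf1-deficient Tconv, against 62.7 and 63.8 CPM in aged Tconv and 0.0939 and 0.11 CPM in young Tconv. The aged libraries were nearly equal and the other 4 at or next to 0 (log2 fold change -9.65 ± 1.44 SE, adjusted p = 0.0232 by edgeR). Fam160a1 (chromosome 3, 85660061 to 85817291) behaved alike at 0.439 and 0.868 CPM in Dcaf1-deficient Tconv, against 73.6 and 71.005 CPM in aged Tconv and 1.27 and 1.98 CPM in young Tconv (log2 fold change -6.78 ± 0.70 SE, adjusted p = 0.0222 by edgeR). Rian, a maternally expressed long noncoding RNA, had 0.0976 and 0 CPM in Dcaf1-deficient Tconv, against 5.05 and 8.32 CPM in aged Tconv and 0.422 and 0.55 CPM in young Tconv (log2 fold change -6.95, edgeR adjusted p = 0.0232). Ier5l had 0.342 and 0.193 CPM in Dcaf1-deficient Tconv, against 14.7 and 35.9 CPM in aged Tconv and 0.657 and 0.44 CPM in young Tconv (log2 fold change -6.54, edgeR adjusted p = 0.0232).

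A second set was many times higher in aged Tconv 2 than in aged Tconv 1. Krt17, a keratin of epithelia, had 0.244 and 0.193 CPM in Dcaf1-deficient Tconv, against 11.4 and 162 CPM in aged Tconv and 0.188 and 0 CPM in young Tconv (log2 fold change -8.60, edgeR adjusted p = 0.0396). Rasgrf1, a Ras exchange factor known from neurons, had 0.342 and 0.386 CPM in Dcaf1-deficient Tconv, against 28.2 and 151 CPM in aged Tconv and 0.329 and 0.22 CPM in young Tconv (log2 fold change -7.93, edgeR adjusted p = 0.0396). Slc24a3, a sodium, potassium and calcium exchanger, had 0.634 and 0.434 CPM in Dcaf1-deficient Tconv, against 33.3 and 141 CPM in aged Tconv and 0.845 and 0.22 CPM in young Tconv (log2 fold change -7.34, edgeR adjusted p = 0.0286). Myh3, the embryonic muscle myosin, had 0.878 and 0.482 CPM in Dcaf1-deficient Tconv, against 27.7 and 147 CPM in aged Tconv and 0.329 and 0.11 CPM in young Tconv (log2 fold change -6.99, edgeR adjusted p = 0.0396). Ccdc67 had 0.293 and 0.145 CPM in Dcaf1-deficient Tconv, against 8.83 and 46.8 CPM in aged Tconv and 0.657 and 0.495 CPM in young Tconv (log2 fold change -6.96, edgeR adjusted p = 0.0369). Even so aged Tconv 1 stood well above every Dcaf1-deficient and young library in each. Gzmk, described above, completes the 10. Among all called lower genes aged Tconv 2 was the higher aged library in 175 of 226, beside 4596 of 9495 among all genes tested.

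Ptpn11, chosen after its values were seen because it had the smallest p of all genes, hardly varied within pairs. This gene of the phosphatase SHP-2, which binds PD-1 and other receptors, had 233 and 233 CPM in Dcaf1-deficient Tconv, against 658 and 661 CPM in aged Tconv and 223 and 226 CPM in young Tconv. The aged pair stood far above the other 4 libraries, and the Dcaf1-deficient libraries lay just above the young ones (log2 fold change -1.50 ± 0.11 SE, adjusted p = 0.00703 by edgeR). It was 1 of the 8 genes called without aged Tconv 2, with Eomes, Ksr1, Ntn1, Synpo, Tnfaip8, Ddc and Itgb3, also named for that reason alone. Ksr1, a scaffold of the MAP kinase cascade, had 52.3 and 50.1 CPM in Dcaf1-deficient Tconv, against 174 and 140.3 CPM in aged Tconv and 48.3 and 53.02 CPM in young Tconv. Ntn1, the guidance cue netrin 1, had 2.44 and 2.31 CPM in Dcaf1-deficient Tconv, against 15.1 and 16.02 CPM in aged Tconv and 5.54 and 6.22 CPM in young Tconv. Synpo, an actin-associated protein, had 12.5 and 10.7 CPM in Dcaf1-deficient Tconv, against 70.2 and 147 CPM in aged Tconv and 12.9 and 12.5 CPM in young Tconv. Tnfaip8 had 129 and 132 CPM in Dcaf1-deficient Tconv, against 237 and 436 CPM in aged Tconv and 126 and 121 CPM in young Tconv. All of these but Itgb3 were lower in Dcaf1-deficient Tconv, and Itgb3, integrin beta 3, was higher, though it was not called with all libraries.

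A rule on levels, without a test, listed genes of aged Tconv that were low in Dcaf1-deficient Tconv. At 4 CPM or more in both aged libraries and below 1 CPM in both Dcaf1-deficient libraries stood 40 genes, 24 of them called lower. Of the 40, 33 were also below 1 CPM in both young libraries, and none had 0 counts in both Dcaf1-deficient libraries. Col16a1, a collagen, had 0.439 and 0.0482 CPM in Dcaf1-deficient Tconv, against 19.7 and 561 CPM in aged Tconv and 0.141 and 0.055 CPM in young Tconv. Ndrg4 had 0.976 and 0.964 CPM in Dcaf1-deficient Tconv, against 5.33 and 141 CPM in aged Tconv and 0.798 and 0.66 CPM in young Tconv. Aged Tconv 2 was the higher aged library in 32 of the 40. Mst1, a secreted hepatocyte growth factor-like protein of chromosome 9, differed from the others in its young level. It had 0.0488 and 0.289 CPM in Dcaf1-deficient Tconv, against 8.44 and 5.04 CPM in aged Tconv and 9.34 and 9.57 CPM in young Tconv. Among the Tconv groups it was thus low in the Dcaf1-deficient one alone.

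The reverse rule, at 4 CPM or more in both Dcaf1-deficient libraries and below 1 CPM in both aged ones, listed 56 genes, of which 1 was called higher and 12 were below 1 CPM in both young libraries. Mertk, a receptor with which macrophages engulf dying cells, had 20.4 and 23.6 CPM in Dcaf1-deficient Tconv, against 0.222 and 0 CPM in aged Tconv and 0 and 6.71 CPM in young Tconv. Igf1, a growth factor that macrophages also make, had 18.3 and 24.9 CPM in Dcaf1-deficient Tconv, against 0.389 and 0.19 CPM in aged Tconv and 0.235 and 6.11 CPM in young Tconv. Slc45a3 had 21.2 and 18.4 CPM in Dcaf1-deficient Tconv, against 0.5 and 0 CPM in aged Tconv and 0.0939 and 6.05 CPM in young Tconv. Hebp1, a heme-binding protein, had 17.3 and 18.5 CPM in Dcaf1-deficient Tconv, against 0.611 and 0.808 CPM in aged Tconv and 0.563 and 2.75 CPM in young Tconv. Amy2a5, a pancreatic amylase that has near-identical copies and so uncertain counts, had 19.2 and 23.7 CPM in Dcaf1-deficient Tconv, against 0 and 0 CPM in aged Tconv and 0 and 15.2 CPM in young Tconv. With 884 counts over both Dcaf1-deficient libraries and 0 over both aged ones, it was at least 279-fold higher, taking 3 counts over the aged group as the floor. That bound covers counting error only, and edgeR did not call the gene (adjusted p = 0.304). Col6a4, a collagen of chromosome 9, had 37.7 and 37.2 CPM in Dcaf1-deficient Tconv, against 0.167 and 0 CPM in aged Tconv and 0.375 and 0.44 CPM in young Tconv, low in young Tconv too. Young Tconv 2 held several of these transcripts and young Tconv 1 nearly none.

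**Figure D4:**
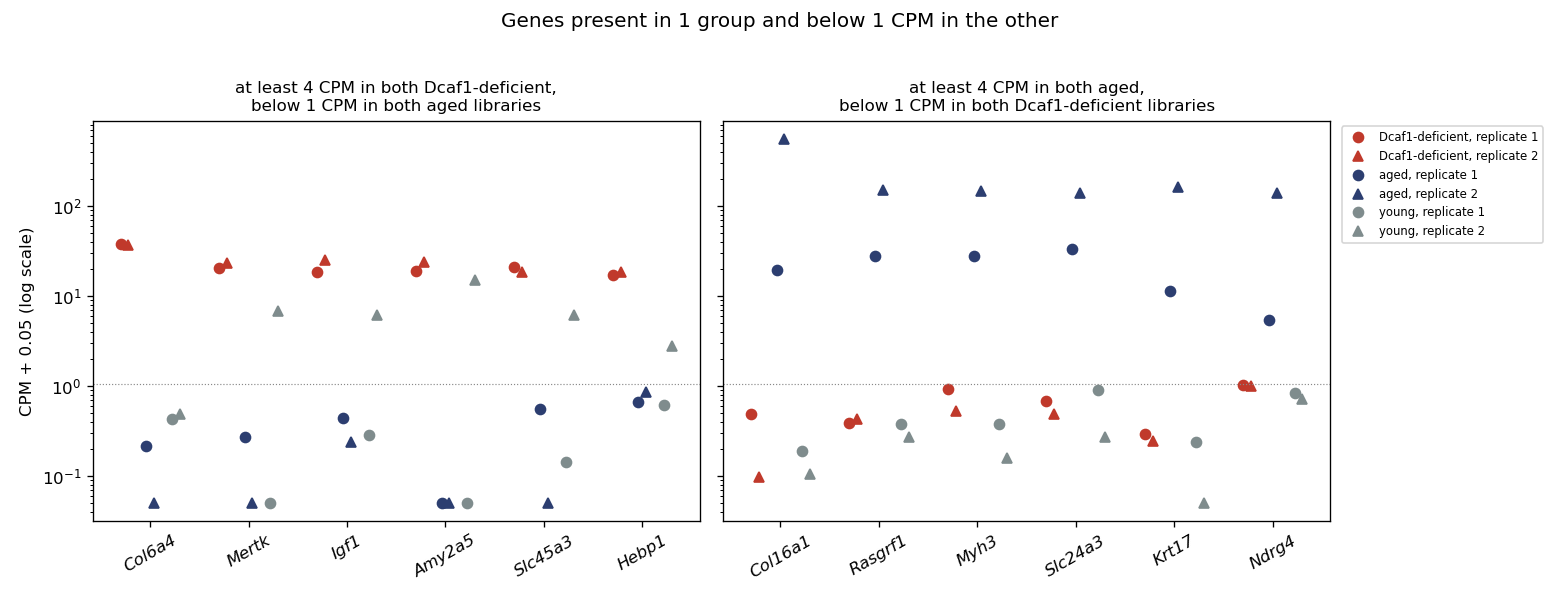
Level of the 12 genes named under the rule on levels in each Tconv library, in CPM with 0.05 added on a log scale, with Dcaf1-deficient libraries at the left of each gene; the dotted line marks 1 CPM. At the left, Dcaf1-deficient libraries stand between 17.3 and 37.7 CPM and aged ones below 1 CPM; at the right, aged Tconv 2 (triangles) lies above aged Tconv 1 (circles) for all 6 genes.

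Transcripts of several other blood cells were higher in the Dcaf1-deficient libraries, though edgeR called none. Of 14 tested macrophage genes 13 were higher in Dcaf1-deficient Tconv, with a median log2 fold change of 4.39, and their summed level was 1300 and 1387 CPM in Dcaf1-deficient Tconv, against 208 and 591 CPM in aged Tconv and 31.1 and 339.9 CPM in young Tconv. C1qa, a complement gene of splenic macrophages, had 56.5 and 55.4 CPM in Dcaf1-deficient Tconv, against 3.61 and 1.85 CPM in aged Tconv and 0.282 and 13.8 CPM in young Tconv. Csf1r, their growth factor receptor, had 203 and 224 CPM in Dcaf1-deficient Tconv, against 17.9 and 3.94 CPM in aged Tconv and 8.35 and 64.6 CPM in young Tconv. All 15 tested erythroid genes were higher, with a median of 3.30 and sums of 1579 and 1584 CPM, against 178 and 39.3 CPM in aged Tconv and 27.6 and 140 CPM in young Tconv. B cell genes were higher in 13 of 14, with sums of 947 and 951 CPM, against 674 and 694 CPM in aged and 544 and 822 CPM in young Tconv. Neutrophil genes were higher in 10 of 13, NK and CD8 genes in 8 of 9, dendritic cell genes in 10 of 11, plasma cell genes in 4 of 7 and platelet genes in 4 of 4. The summed neutrophil level was 89.1 and 99.7 CPM in Dcaf1-deficient Tconv, against 49.7 and 124 CPM in aged Tconv. The summed plasma cell level was 521 and 557 CPM in Dcaf1-deficient Tconv, against 389.8 and 586 CPM in aged Tconv, with a median log2 fold change of 0.06. In both lists the Dcaf1-deficient sums lay between those of the aged libraries. The NK and CD8 sums were 312 and 332 CPM in Dcaf1-deficient Tconv, against 101 and 146 CPM in aged Tconv, and the dendritic sums 3614 and 3745 CPM in Dcaf1-deficient Tconv, against 1254 and 1502 CPM in aged Tconv. The edgeR calls of none stand against 9 macrophage, 2 erythroid, 0 B cell, 2 neutrophil, 3 NK and CD8, 3 dendritic, 2 plasma cell and 1 platelet gene at an unadjusted p below 0.05. Over all genes tested 2125 of 9495 were below that limit, and DESeq2 called 522 higher and 891 lower of 11486. DESeq2 called 10 macrophage genes, 3 erythroid, 1 neutrophil, 3 NK and CD8, 3 dendritic and 1 platelet gene higher, 1 plasma cell gene lower and no B cell gene. limma called 1 NK and CD8, 2 dendritic and 1 platelet gene higher.

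T cell genes differed in both directions. Of 13 tested 10 were lower and 3 higher, with a median of -0.23. edgeR called none of them, against 2 at an unadjusted p below 0.05, and limma none, while DESeq2 and edgeR with a sex term each called Thy1 higher and Zap70 lower. Thy1, a surface marker of T cells, had 1215 and 1184 CPM in Dcaf1-deficient Tconv, against 844 and 569 CPM in aged Tconv (log2 fold change 0.76, edgeR adjusted p = 0.15). Zap70, the kinase recruited to the engaged receptor, had 299.6 and 253 CPM in Dcaf1-deficient Tconv, against 517 and 850.1 CPM in aged Tconv (log2 fold change -1.31, edgeR adjusted p = 0.136). Cd4 stood at 1930 and 1933 CPM in Dcaf1-deficient Tconv, against 1813 and 2542 CPM in aged Tconv. Lck, the kinase of the CD4 tail, stood at 1417 and 1403 CPM in Dcaf1-deficient Tconv, against 1684 and 1665 CPM in aged Tconv, and Cd3e, a chain of the T cell receptor complex, at 423 and 418 CPM in Dcaf1-deficient Tconv, against 544 and 843 CPM in aged Tconv. Defining T cell genes were thus abundant in all 6 Tconv libraries, and the part of other cells in the increases below was not tested. With the mean levels of the macrophage and B cell lists as terms in the fit edgeR called none of the 292 genes, of which 291 kept their direction, and with those of the macrophage and erythroid lists 92 of the 292 stayed called and all kept their direction. Summed levels of all these lists were higher in both Dcaf1-deficient than in both aged libraries, so such terms and the label cannot be fully told apart. Pf4 and Ppbp, the defining platelet transcripts, were at or near 0 in all 6 libraries.

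**Figure D5:**
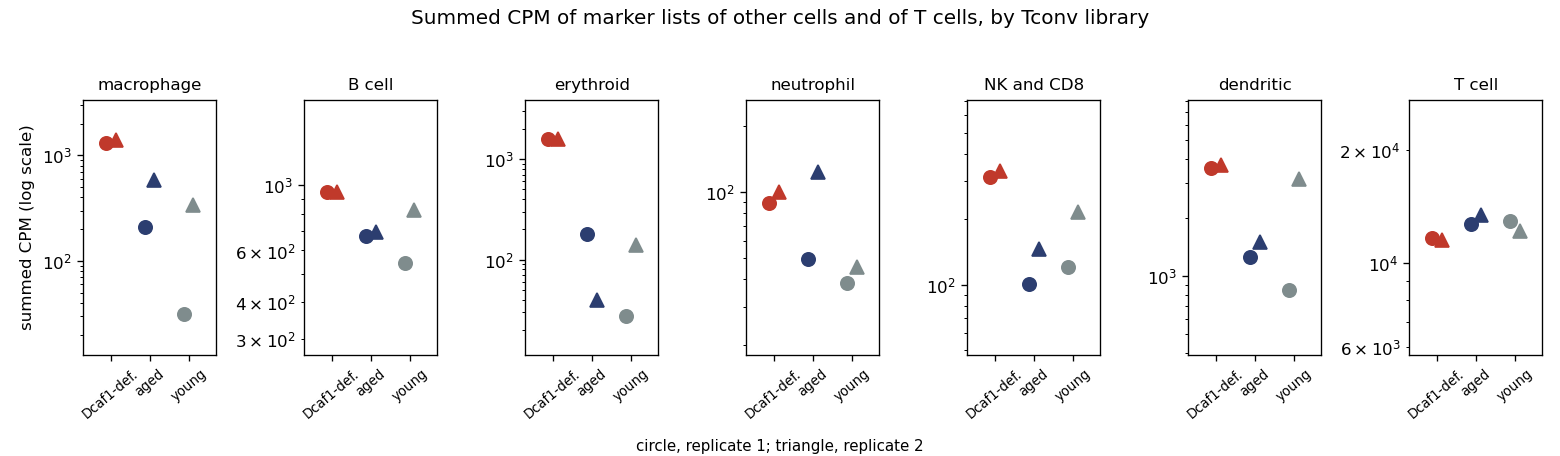
Summed CPM of the marker lists of 6 other cell types and of T cells in each Tconv library, on a log scale that differs by panel, with Dcaf1-deficient libraries at the left, then aged and young ones. Both Dcaf1-deficient libraries lie above both aged ones in macrophage, B cell, erythroid, NK and CD8, and dendritic lists, and below them in the T cell list.

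The increases against aged Tconv were smaller and fell into separate kinds. In 1 kind Dcaf1-deficient Tconv exceeded aged and young Tconv alike. Il18rap (chromosome 1, 40515362 to 40551705), a subunit of the interleukin 18 receptor, had 125 and 132 CPM in Dcaf1-deficient Tconv, against 23.7 and 21.2 CPM in aged Tconv and 15.5 and 21.01 CPM in young Tconv (log2 fold change 2.51 ± 0.45 SE, adjusted p = 0.0378 by edgeR). Vim (chromosome 2, 13573927 to 13582826), the intermediate filament vimentin, which rises in activated T cells and is abundant in macrophages, had 977 and 965 CPM in Dcaf1-deficient Tconv, against 507 and 445 CPM in aged Tconv and 465 and 459 CPM in young Tconv (log2 fold change 1.03 ± 0.21 SE, adjusted p = 0.0464 by edgeR). These were the 2 members called of 19 tested memory and activation genes, neither of them lower, and the list's median was 0.56. Over all genes tested 0.695% were called higher. Gna15, a G protein alpha subunit of blood cells, had 55.96 and 48.2 CPM in Dcaf1-deficient Tconv, against 14.8 and 12.6 CPM in aged Tconv and 10.5 and 15.2 CPM in young Tconv (log2 fold change 1.92, edgeR adjusted p = 0.0232). Nhsl2 had 28.5 and 32.1 CPM in Dcaf1-deficient Tconv, against 4.78 and 5.23 CPM in aged Tconv and 4.83 and 9.35 CPM in young Tconv (log2 fold change 2.60, edgeR adjusted p = 0.0259). Ggt1, a glutathione-cleaving transferase, had 51.1 and 49.5 CPM in Dcaf1-deficient Tconv, against 9.89 and 5.09 CPM in aged Tconv and 14.5 and 10.5 CPM in young Tconv (log2 fold change 2.75, edgeR adjusted p = 0.0446). Against young Tconv none of these passed, with edgeR adjusted p values of 0.203 for Il18rap, 0.252 for Vim and 0.113 for Gna15.

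In the other kind aged Tconv was low and young Tconv lay between the groups, at the Dcaf1-deficient level or above it. Grm8, a glutamate receptor, had 5.61 and 5.59 CPM in Dcaf1-deficient Tconv, against 0.333 and 0.0951 CPM in aged Tconv and 1.31 and 2.75 CPM in young Tconv (log2 fold change 4.70, edgeR adjusted p = 0.0441). Chdh, the choline dehydrogenase, had 28.7 and 28.7 CPM in Dcaf1-deficient Tconv, against 6.94 and 2.14 CPM in aged Tconv and 17.2 and 27.8 CPM in young Tconv (log2 fold change 2.66, edgeR adjusted p = 0.0446). Plekha6 had 5.27 and 6.89 CPM in Dcaf1-deficient Tconv, against 1.06 and 0.855 CPM in aged Tconv and 6.71 and 6.05 CPM in young Tconv (log2 fold change 2.66, edgeR adjusted p = 0.0464). Rasgrp1, the Ras exchange factor downstream of the T cell receptor, had 793 and 821 CPM in Dcaf1-deficient Tconv, against 438 and 237 CPM in aged Tconv and 848 and 941 CPM in young Tconv (log2 fold change 1.26, edgeR adjusted p = 0.0443) and was the 1 gene called of 20 tested receptor signalling genes. Selplg, the P-selectin ligand with which T cells roll on vessel walls, had 1028 and 949 CPM in Dcaf1-deficient Tconv, against 526 and 374 CPM in aged Tconv and 779 and 765 CPM in young Tconv (log2 fold change 1.14, edgeR adjusted p = 0.0283). It was the 1 of 20 homing genes called higher, and Itgb8, which activates TGF-beta, was the 1 called lower (2.44 and 3.23 CPM in Dcaf1-deficient Tconv, against 45.3 and 81.9 CPM in aged Tconv and 2.3 and 2.37 CPM in young Tconv). Over all genes tested 0.695% were called higher and 2.38% lower, so single members say little of the receptor signalling and homing lists.

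Interferon response genes had 5 of 28 tested members called higher and none lower, beside 0.695% higher and 2.38% lower of all genes tested. The median was 0.30, with aged Tconv 1 left out 0.35 and with aged Tconv 2 left out 0.40. Oas2 (chromosome 5, 120730333 to 120749853), a sensor that makes oligoadenylate, had 121 and 128 CPM in Dcaf1-deficient Tconv, against 18.5 and 6.27 CPM in aged Tconv and 81.9 and 75.2 CPM in young Tconv (log2 fold change 3.33 ± 0.58 SE, adjusted p = 0.0378 by edgeR). Irf7, the master factor of type I interferon, had 269.8 and 251 CPM in Dcaf1-deficient Tconv, against 122 and 108 CPM in aged Tconv and 146 and 160 CPM in young Tconv (log2 fold change 1.18, edgeR adjusted p = 0.0235). Ifit1 had 83.8 and 89.3 CPM in Dcaf1-deficient Tconv, against 27.3 and 36.4 CPM in aged Tconv and 39.9 and 56.3 CPM in young Tconv (log2 fold change 1.44, edgeR adjusted p = 0.0283). Oasl1 had 22.6 and 21.4 CPM in Dcaf1-deficient Tconv, against 8.39 and 6.61 CPM in aged Tconv and 14.1 and 17.3 CPM in young Tconv (log2 fold change 1.55, edgeR adjusted p = 0.0369), and Ifit2 was the fifth. Dcaf1-deficient libraries were highest of the 6 in all of Oas2, Irf7, Ifit1 and Oasl1, and aged ones lowest. Oas and Ifit genes have close copies, so their counts are uncertain. Plasmacytoid dendritic cells are rich in Irf7, and their marker Siglech stood at 217 and 223 CPM in Dcaf1-deficient Tconv, against 24.8 and 8.84 CPM in aged Tconv and 58.2 and 155 CPM in young Tconv. The part of such cells in the interferon genes was not tested.

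Naive T cell genes were higher in Dcaf1-deficient Tconv in 13 of 13, with a median of 1.42, and edgeR called none of them, against 6 at an unadjusted p below 0.05, 5 by DESeq2 and 2 by limma. Over all genes tested 2125 of 9495 were at an unadjusted p below 0.05, and DESeq2 called 1413 of 11486. With aged Tconv 1 left out the list's median was 2.69, and with aged Tconv 2 left out 0.66. Ccr7, the chemokine receptor of lymph node entry, had 619 and 589 CPM in Dcaf1-deficient Tconv, against 315 and 29.7 CPM in aged Tconv and 679 and 759.7 CPM in young Tconv (log2 fold change 1.81, edgeR adjusted p = 0.288). Lef1, a factor of naive cells, had 273 and 300.3 CPM in Dcaf1-deficient Tconv, against 134 and 41.9 CPM in aged Tconv and 408 and 366 CPM in young Tconv (log2 fold change 1.71, edgeR adjusted p = 0.0751). In both the Dcaf1-deficient libraries lay near the young ones, and aged Tconv 2 fell several times below aged Tconv 1. Tcf7, which encodes TCF-1, was at 1666 and 1628 CPM in Dcaf1-deficient Tconv, against 1771 and 580.3 CPM in aged Tconv and 2108 and 1958 CPM in young Tconv, so aged Tconv 1 was within the range of the other groups.

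Some features of aged Tconv were also seen in Dcaf1-deficient Tconv. Ctse (chromosome 1, 131638306 to 131675505), which encodes the protease cathepsin E, had 60.8 and 65.6 CPM in Dcaf1-deficient Tconv, against 51.6 and 104 CPM in aged Tconv and 621 and 617 CPM in young Tconv. Dcaf1-deficient libraries lay within the aged range, and both groups were far below young Tconv. The log2 fold change was -0.30 over aged Tconv (SE 0.31, edgeR adjusted p = 0.589) and -3.29 over young Tconv (edgeR adjusted p = 0.102). Cdkn1a (chromosome 17, 29090976 to 29100727), the gene of the cell cycle inhibitor p21, had 16.1 and 16.2 CPM in Dcaf1-deficient Tconv, against 13.7 and 47.7 CPM in aged Tconv and 1.41 and 2.92 CPM in young Tconv. The Dcaf1-deficient libraries fell between the aged ones and above both young ones (log2 fold change -0.93 ± 0.79 SE, adjusted p = 0.507 by edgeR over aged; log2 fold change 2.91, edgeR adjusted p = 0.421 over young). Cdkn2a, which encodes p16 and ARF, was low throughout, at 2.1 and 1.83 CPM in Dcaf1-deficient Tconv, against 1.33 and 3.75 CPM in aged Tconv and 0 and 0.275 CPM in young Tconv. Over young Tconv, edgeR on the 4 libraries of these groups alone called both Ctse (adjusted p = 0.000191) and Cdkn1a (adjusted p = 0.0202), as did DESeq2, and the edgeR fit with a sex term and limma called Ctse. In those 4 libraries the Dcaf1-deficient ones were female and the young ones male, so sex and label cannot be told apart there. With 2 libraries a group these values do not show that Dcaf1-deficient and aged Tconv were alike.

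Secreted senescence factors, cell cycle inhibitors and p53 targets had no member called. Over all genes tested, 2125 of 9495 had an unadjusted p below 0.05 by edgeR, and DESeq2 called 1413 of 11486. The counts that follow are to be read beside these. edgeR called 0 of 24 secreted senescence factors, against 10 at an unadjusted p below 0.05, 2 higher and 9 lower by DESeq2 and 1 lower by limma, with a median of -1.28. Its lowest p was that of Timp2, a metalloprotease inhibitor, at 88.4 and 88.1 CPM in Dcaf1-deficient Tconv, against 181 and 379 CPM in aged Tconv and 88.9 and 88.1 CPM in young Tconv. Of 8 cell cycle inhibitors edgeR called 0, with 2 at an unadjusted p below 0.05, DESeq2 called 1 in each direction and limma none. Of 13 p53 targets it called 0, with 5 unadjusted, 1 higher and 2 lower by DESeq2 and none by limma. The p53 gene itself, Trp53, was at 112 and 109 CPM in Dcaf1-deficient Tconv, against 198 and 168 CPM in aged Tconv and 214 and 196 CPM in young Tconv (log2 fold change -0.73, edgeR adjusted p = 0.0737), lower than in both other groups. Of 24 antioxidant genes edgeR called 0, with 6 unadjusted, 2 higher and 3 lower by DESeq2 and 1 by limma. Of 11 glutathione transferases it called 0, with 2 unadjusted, 1 lower by DESeq2 and none by limma. The lowest p among them was that of Gstt3, whose close copies make its counts uncertain, at 3.61 and 3.86 CPM in Dcaf1-deficient Tconv, against 10.7 and 44.3 CPM in aged Tconv and 1.08 and 1.82 CPM in young Tconv. In the NADPH oxidase list 1 of 5 fell, Noxa1, an activator of NOX1, at 0.585 and 0.0964 CPM in Dcaf1-deficient Tconv, against 6.83 and 8.55 CPM in aged Tconv and 0.329 and 0.55 CPM in young Tconv (log2 fold change -4.48, edgeR adjusted p = 0.0344). Over all genes tested 2.38% were called lower, and 1 member says little of that list.

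Glycolysis genes were lower in 13 of 16, with a median of -0.78, and edgeR called 0, against 9 at an unadjusted p below 0.05, 7 by DESeq2 and none by limma. Over all genes tested 2125 of 9495 were at an unadjusted p below 0.05, and DESeq2 called 1413 of 11486. Tpi1, triose phosphate isomerase, had 79.2 and 78.9 CPM in Dcaf1-deficient Tconv, against 161 and 758 CPM in aged Tconv and 57.2 and 61.5 CPM in young Tconv. Slc16a3, the lactate exporter MCT4, had 7.07 and 6.03 CPM in Dcaf1-deficient Tconv, against 21.4 and 165 CPM in aged Tconv and 3.71 and 4.57 CPM in young Tconv. Both were several times higher in aged Tconv 2 than in aged Tconv 1. Oxidative phosphorylation, with a median of 0.05 over 28 genes, and the proteasome, with -0.02 over 30, had 0 called, with 3 and 0 at an unadjusted p below 0.05, by DESeq2 1 and 0 and by limma none. Mitosis genes were higher in 17 of 17, with a median of 1.05 and 0 called by edgeR, by DESeq2 or by limma, and 0 at an unadjusted p below 0.05. Birc5, survivin, stood at 69.4 and 62.5 CPM in Dcaf1-deficient Tconv, against 9.89 and 29.5 CPM in aged Tconv and 9.43 and 16.3 CPM in young Tconv. Erythroid precursors divide, and erythroid transcripts were also higher in these libraries, as given above; their part in the mitosis genes was not tested.

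Cytosolic ribosomal protein genes were higher in 55 of 57, with a median of 0.37. edgeR called 1 lower and none higher, with 22 at an unadjusted p below 0.05, and limma did the same, while DESeq2 called 14 higher and 1 lower and edgeR with a sex term 11 higher and 1 lower. Over all genes tested 2125 of 9495 were at an unadjusted p below 0.05, and DESeq2 called 522 higher and 891 lower of 11486. Leaving out aged Tconv 1 gave a list median of 0.65, and leaving out aged Tconv 2 0.17. The gene called lower with all libraries was Rpl29 (chromosome 9, 106429454 to 106431568), at 42.98 and 37.9 CPM in Dcaf1-deficient Tconv, against 606 and 495 CPM in aged Tconv and 836 and 845 CPM in young Tconv (log2 fold change -3.77 ± 0.55 SE, adjusted p = 0.0283 by edgeR). Among the Tconv groups it was low in the Dcaf1-deficient one alone, though not called against young Tconv (edgeR adjusted p = 0.127). The log2 fold change over aged cells in Tconv minus that in Treg was -0.75 (edgeR adjusted p = 0.869), so the drop was not shown to be particular to Tconv. Processed copies of ribosomal genes make the Rpl29 count uncertain. Mrpl48 (chromosome 7, 100545751 to 100608301), a mitochondrial ribosomal protein, followed the same pattern among the Tconv groups at 3.12 and 3.62 CPM in Dcaf1-deficient Tconv, against 29.2 and 36.3 CPM in aged Tconv and 34.3 and 39.3 CPM in young Tconv (log2 fold change -3.28 ± 0.63 SE, adjusted p = 0.046 by edgeR). Mrpl48 was not called over young Tconv (edgeR adjusted p = 0.252). Its fold change over aged cells in Tconv minus that in Treg was -1.57 (edgeR adjusted p = 0.746). In the same list Mrpl30 was higher, at 85.1 and 85.2 CPM in Dcaf1-deficient Tconv, against 51.4 and 46.3 CPM in aged Tconv and 79.3 and 81.2 CPM in young Tconv (log2 fold change 0.80, edgeR adjusted p = 0.0294), and the median over 59 genes was 0.01. Vars, the valine tRNA ligase, was the 1 of 20 translation genes called, at 251 and 215 CPM in Dcaf1-deficient Tconv, against 379.9 and 354 CPM in aged Tconv and 252 and 238 CPM in young Tconv (log2 fold change -0.65, edgeR adjusted p = 0.0382). Over all genes tested 3.08% were called, so such single calls say little of the ribosome and translation lists. Parts of the CUL4 ligase, Dcaf1 among them, had 0 of 18 called by edgeR, DESeq2 or limma, 1 at an unadjusted p below 0.05 and a median of 0.01.

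Several called genes lie near Dcaf1 on chromosome 9. Within 5 Mb of it, a window chosen after the values were seen, 2 of 142 tested genes were called higher and 8 lower, 7.04%, beside 3.02% of all other genes with a position. The higher ones were Bsn, a presynaptic scaffold, at 22.4 and 20.6 CPM in Dcaf1-deficient Tconv, against 4.17 and 3.94 CPM in aged Tconv and 6.05 and 6.33 CPM in young Tconv (log2 fold change 2.40, edgeR adjusted p = 0.0303), and Cacna2d2, a calcium channel subunit, at 11.3 and 12.7 CPM in Dcaf1-deficient Tconv, against 2.56 and 2.57 CPM in aged Tconv and 3.19 and 3.96 CPM in young Tconv (log2 fold change 2.23, edgeR adjusted p = 0.0232). Among the lower ones were Rpl29, Mst1, Abhd14a, Abhd14b, Parp3, Pik3r4 and Plxnb1.

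Of the extracellular matrix list 2 of 13 fell, Krt17 and Col1a1, a fibrillar collagen at 0.537 and 0.723 CPM in Dcaf1-deficient Tconv, against 3.83 and 19.2 CPM in aged Tconv and 0.422 and 0.165 CPM in young Tconv (log2 fold change -4.18, edgeR adjusted p = 0.0434). The list's median was -0.47, and its extremes were Col16a1 and Col6a4. Immediate early genes had 1 of 16 called lower, Nr4a2, with a median of -0.44. Over all genes tested 2.38% were called lower, and 2125 of 9495 were at an unadjusted p below 0.05. Hspa1a, a heat shock protein that cell handling can induce, was at 10.1 and 9.88 CPM in Dcaf1-deficient Tconv, against 98.8 and 31.7 CPM in aged Tconv and 59.6 and 13.8 CPM in young Tconv, highest in aged Tconv 1. Of the 19 unfolded protein and heat shock genes 18 were lower, with a median of -0.30 and 0 called by edgeR, 4 at an unadjusted p below 0.05, 3 by DESeq2 and none by limma. Chemokines and their receptors had 0 of 21 called, with 9 at an unadjusted p below 0.05, 1 higher and 7 lower by DESeq2 and 1 higher by limma. DNA replication genes had 0 of 20 called, with 1 unadjusted, 1 by DESeq2 and none by limma, and sterol and fatty acid genes 0 of 16 by any of the 3 tools, with 0 unadjusted.

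Set against young Tconv of the same age, the libraries labelled Dcaf1-deficient had no gene called by edgeR of 9495 (0%), with 954 at an unadjusted p below 0.05. DESeq2 called 153 higher and 71 lower, and limma 6 higher and 5 lower. The count depended on which libraries entered the fit: edgeR called 9 higher and 7 lower with the 6 Tconv libraries, and 620 higher and 451 lower of 8761 with the 4 libraries of these groups alone. Aged over young Tconv had 841 genes called in the same fit (8.86%), 606 higher (6.38%) and 235 lower (2.47%), against 3 higher and none lower with its own 4 libraries alone, so the order of the counts of these comparisons turned round. Dcaf1-deficient Tconv libraries were female and young ones male, so sex and label cannot be told apart in the counts of that comparison. The young libraries differed in their other-cell transcripts, with young Tconv 2 holding more of them than young Tconv 1. The contrast of Dcaf1-deficient with aged cells was called different between Tconv and Treg for no gene by the edgeR interaction test (0%), with 702 at an unadjusted p below 0.05, 44 higher and 84 lower by DESeq2 and 2 lower by limma. For Eomes the log2 contrast in Tconv minus that in Treg was -4.53 (SE 0.53, edgeR adjusted p = 0.178), and for Gzmk -6.18 (SE 0.96, edgeR adjusted p = 0.318).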

How the data were processed

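RNA was from sorted splenic T cells. Per the submitters' processing notes, Salmon 0.9.1 and DESeq2 were used with mm10; the transcript annotation is not given in the sources used here. The authors deposited estimated counts per gene (13404 rows, 23.5% of values whole) and log2 values whose transform is not stated. Columns were matched to samples by title, and 0 columns of per-sample values were left unused.

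Estimated counts were rounded and tested with edgeR 4.0.16 in R 4.3.3: TMM scaling, low-count filter (9495 of 11486 genes with a count tested), quasi-likelihood test over all 12 libraries with 6 group means and 6 residual degrees of freedom, Benjamini-Hochberg threshold 0.05. DESeq2 1.42.0, and limma 3.58.1 on the deposited log2 values, were alternatives.

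Named were the 9 genes fixed by name, the 10 largest called changes each way at 4 CPM or more in a group, up to 4 called members of each of 41 lists or 2 where none was called, and 6 genes each way under the rule on levels; lists overlap. Lag3, Tox, Havcr2, Ccl5, Tbx21, Ikzf4, Bcl6, Ccr7, Tcf7, Mst1 and the defining markers of other cells lie outside that rule, and all but the markers were chosen after their values were seen. The members and lists were chosen with earlier results of these data known. Depth limits each library to a floor of 3 counts, 0.143 to 0.167 CPM over the 4 libraries compared, covering counting error only. The labels do not say that a replicate number marks a shared mouse or batch, so the fit has no block for it, and list members outside the tables were not analysed here. The series' Treg libraries entered the fit for its spread and the interaction test.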

Additional observations from a re-analysis of the deposited data

How the results depend on the processing

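The direction of the 292 genes called between Dcaf1-deficient and aged Tconv held wherever they had a value, except Krt17 with macrophage and B cell terms. Where libraries were only left out or pooled, the lack of overlap between the groups had largely fixed that direction. The count of calls did not hold. It was 1413 with DESeq2, 547 with the 6 Tconv libraries alone, 907 with a sex term and 0 with macrophage and B cell terms. Alternatives chosen after seeing the data gave 121 with macrophage and erythroid terms, 0 with the Dcaf1-deficient Tconv pair counted as 1, and, without 1 library of a group not compared, 12 for each young Tconv, 14 for each Dcaf1-deficient Treg, 166 and 172 for young Treg, and 835 and 832 for aged Treg. Leaving out 1 compared library gave 0 to 1383, and dropping young Treg 2 with aged Treg 1 gave 1254. The replicate block gave 190 calls and ended 20 of 47 calls among the named genes, Pdcd1 (adjusted p = 0.0548) and Foxp3 (0.0605) included. Same-numbered libraries of the groups compared deviated together weakly (r = 0.0318), and over the 15 pairs of groups r ran from -0.655 (aged with young Treg) to 0.69 (young Tconv with young Treg). Only Tconv and Treg of the same mouse group could share mice. Between these r was 0.69 for young, 0.282 for aged and 0.0385 for Dcaf1-deficient cells. The labels give no such pairing, so the fit has none, and the test between Tconv and Treg ignores any that exists. With the title tag as a term 162 of the 292 calls remained, and with the 4 libraries alone 101. Causes of these shifts were not tested.

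Dcaf1-deficient against young Tconv had 224 calls with DESeq2, 16 with 6 Tconv libraries, 1071 with the 4 libraries alone, 1 with the sex term, 11 with limma and 38 without the 2 Treg libraries named. Aged against young Tconv, 841 calls, had 2033 with DESeq2, 3 with the 4 libraries alone, 437 with the tag term, 303 with the sex term, 1431 without the 2 Treg libraries, and 0 to 2340 leaving out 1 library. The difference between Tconv and Treg had 128 with DESeq2, 12 with the tag term, 3 with the sex term, 2 with limma, 80 without the 2 Treg libraries, and 0 to 166 leaving out 1 library. The rule on levels listed 96 genes in both directions, 24 at a limit of 10 CPM, and 108 to 295 leaving out 1 library. As every library of a group must pass the rule, leaving out 1 can only keep or raise the count, which says nothing of stability.

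Log2 fold changes that changed sign were, with macrophage and B cell terms, Il2ra -0.84, Krt17 1.46, C1qc -0.65, Car1 -10.77 and Amy2a5 -25.26; with macrophage and erythroid terms, Fcrla -0.75, Ly6d -1.20, Camp -0.28, Vwf -1.41 and Amy2a5 -1.19; leaving out 1 library, Cdkn1a (-1.56 to 0.24), Cdkn2a (-0.93 to 0.56) and Ctse (-0.71 to 0.29), positive without aged Tconv 2; and with the tag term, Ctse 0.14. Of these Krt17 alone was called with all libraries. With 2 libraries a group, a gene not called is not shown to be alike.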
